A study of Caenorhabditis elegans with 4 samples.

Results

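The left end of chromosome II of Caenorhabditis elegans carries the meiotic pairing center of that chromosome, and it is described here through the ZIM-1 ChIP-seq peaks that lie in it. A peak was taken as a member when it was on II in the series-wide peak list and its midpoint was at or below 3 Mb, on WormBase release WS220. The rule used position alone. It gave 460 members among 9439 peaks in that list, of which 1472 were on II. In ChIP replicate 1 the same stretch held 314 of 5552 peaks, and in ChIP replicate 2 it held 179 of 2887.

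Pairing centers are the chromosome regions through which homologous chromosomes find each other and begin synapsis in meiotic prophase. Each is bound by a member of a small family of zinc finger proteins, ZIM-1, ZIM-2, ZIM-3 and HIM-8, which link it to the nuclear envelope and so to the cytoskeletal motors that move chromosomes. ZIM-1 is the member known for the pairing centers of II and III, which lie in the left parts of those chromosomes.

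The samples were 2 ZIM-1 ChIP libraries and 2 libraries of input DNA, which were not immunoprecipitated. All 4 came from hermaphrodites of the strain fem-2(b245), genotype fem-2(b245)III, kept at 20 °C; fem-2 encodes a protein phosphatase of the sex determination pathway. The stage label reads young adult with a germline, whereas the growth protocol describes cultures harvested when gravid. Chromatin was made from whole frozen worms fixed in 1% formaldehyde for 10 min, so germline and somatic nuclei were mixed, and the antibody was a rabbit polyclonal, SDQ3965. The labels do not say whether the replicates were separate cultures, no library from worms lacking ZIM-1 was analysed, and no values of the input libraries were used here. Read depth is unknown. Every interval below is at 95%, counts each peak as 1 independent event although peaks cluster, and covers counting error only.

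Peaks were denser at the left end than along the rest of II in each list. The series-wide list had 153.3 peaks per Mb there (interval 139.6 to 168.0) and 82.4 per Mb on the rest of the chromosome (77.4 to 87.7), a ratio of 1.86 (1.66 to 2.08). Replicate 1 had 104.7 against 47.2 per Mb, a ratio of 2.22 (1.93 to 2.55). Replicate 2 had 59.7 against 26.2 per Mb, a ratio of 2.28 (1.88 to 2.74). The first 3 Mb make up 19.6% of the length of II, and they held 31.2% of its series-wide peaks, 35.1% of its replicate 1 peaks and 35.7% of its replicate 2 peaks. With 2 replicates of 1 group the density was not tested, and the ratio was above 1 in both replicates.

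The difference was larger against the middle of II than against its other end. In the middle of the chromosome, beyond 3 Mb from either end, the series-wide density was 71.4 peaks per Mb (66.1 to 77.1). Over the last 3 Mb it was 116.3 per Mb (104.4 to 129.2), so the left end exceeded the right by a ratio of 1.32 (1.14 to 1.52). The excess over the right end was 1.53 in replicate 1 (1.28 to 1.84) and 1.83 in replicate 2 (1.42 to 2.36). The left end of III, the other known target of ZIM-1, was denser than that of II in all 3 lists, with 222.7 peaks per Mb series-wide (206.1 to 240.2), 139.7 in replicate 1 and 95.7 in replicate 2.

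Peak-covered sequence followed the counts. Peaks covered 252.4 kb, or 8.41%, of the first 3 Mb in the series-wide list and 3.83% of the rest of II. The covered share was 8.27% against 3.45% in replicate 1 and 5.34% against 2.02% in replicate 2. In replicate 2 the first 3 Mb held 39.3% of all bases of II under a peak.

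The density changed within the interval and was lower in the Mb beyond it. In the series-wide list the first Mb held 120 peaks, the next 176, and the third 164, and the Mb after the 3 Mb limit held 75. Replicate 1 had 81, 122 and 111 peaks in these 3 bins and 49 in the fourth, and replicate 2 had 56, 63 and 60 peaks and then 21. The outermost Mb was thus the sparsest of the 3 in each list, and the fourth Mb was lower still. Counts were also low before the limit: the series-wide windows of 100 kb from 2.6 to 2.9 Mb held 6, 5 and 12 peaks. The last window before the limit held 20, and where the density changed was not tested. The last member, from 2987043 to 2987692, had a series-wide score of 13.05 and the first peak beyond the limit, from 3014195 to 3014447, scored 12.17; both were found in replicate 1 alone.

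**Figure D1:**
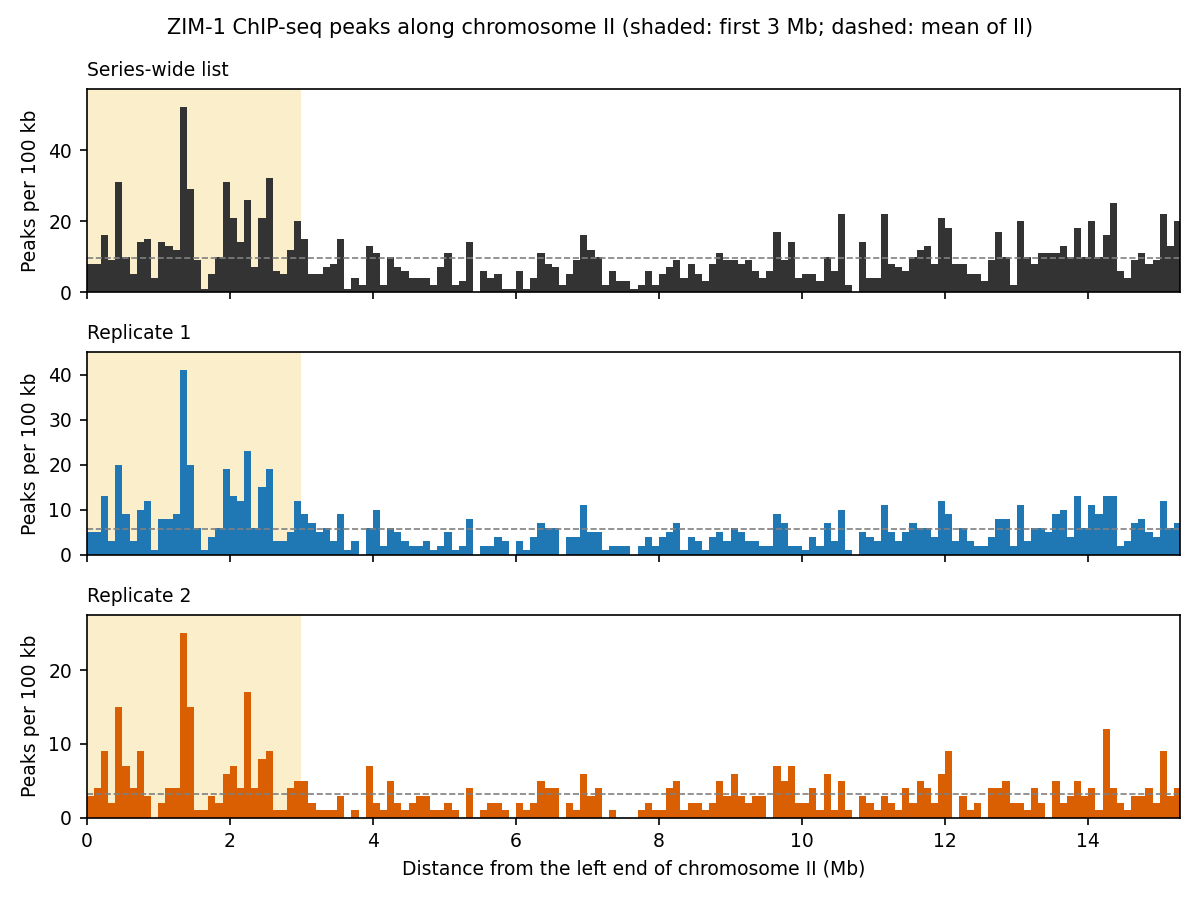
Number of peak midpoints in each 100 kb window along chromosome II (x axis, distance from the left end in Mb) in the series-wide list and in both ChIP replicates (y axis, peaks per 100 kb). The shaded first 3 Mb hold the tallest window of all 3 panels, with 52, 41 and 25 peaks, and the dashed line is the mean of II in each list.

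The left end of II was one of 5 chromosome ends with a high peak density for their own chromosome. Of the 12 ends of 3 Mb, it ranked 3 by density series-wide and in replicate 1, and 2 in replicate 2 and among the series-wide peaks found in both replicates. Measured against the rest of its own chromosome it ranked 5 series-wide and 3 in both replicate lists. The other ends with a ratio near 2 or above in the series-wide list were the left ends of X (2.13), IV (2.0) and III (1.98) and the right end of V (2.13), with counting intervals that overlapped that of II. By density itself the left end of X ranked 10 of 12, with 86 peaks per Mb. For peaks found in both replicates, the left end of II had a ratio of 2.49 (2.04 to 3.02) and its right end one of 0.95.

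**Figure D2:**
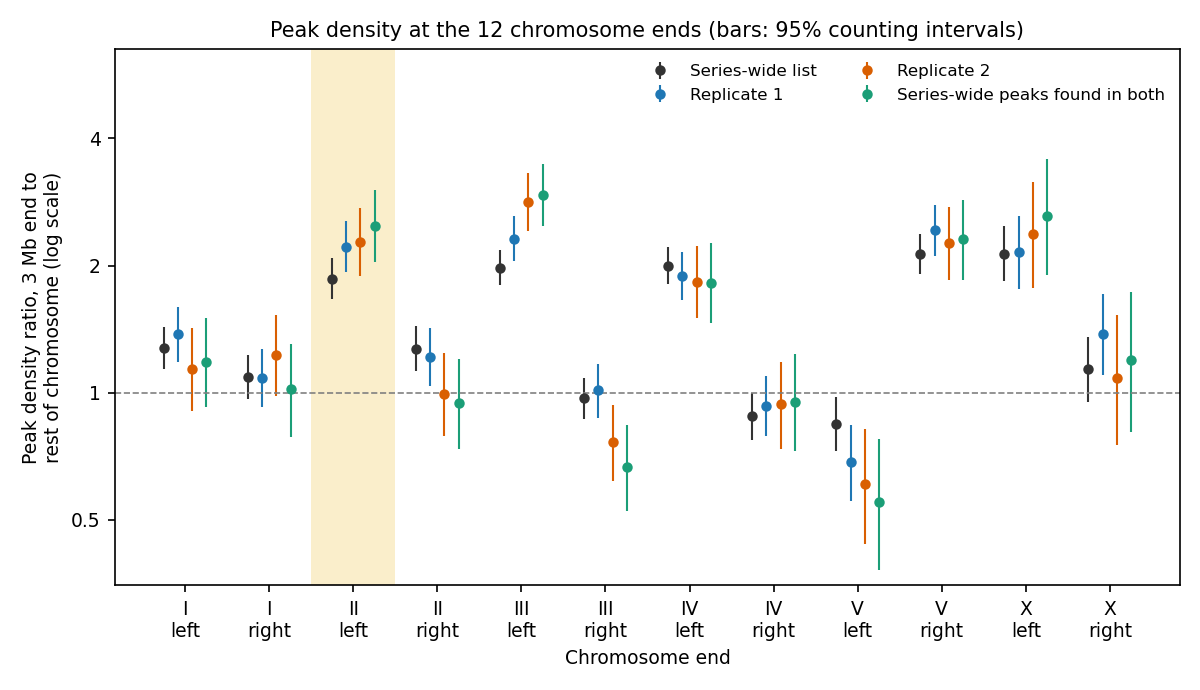
Ratio of peak density in the 3 Mb at each chromosome end to that on the rest of the same chromosome (y axis, log scale), for the 3 lists and for series-wide peaks found in both replicates; bars are 95% counting intervals. The shaded left end of II lies between 1.86 and 2.49 in all 4 sets, whereas its right end lies between 0.95 and 1.27.

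Peaks were unevenly spread over the left end, where the counts of its 30 windows of 100 kb had a variance to mean ratio of 8.07. The 9 windows called below held 57.2% of the members, a share that choosing windows by their counts raises in itself. Each 100 kb window was compared with the mean of its chromosome by an exact Poisson test, with Benjamini-Hochberg adjustment over the 1005 windows of the genome. Of the 30 windows of the first 3 Mb, 19 held more peaks than that mean, as did 41 of the 122 full windows on the rest of II. In the first 3 Mb 9 windows (30%) passed the test. The background was 8.76% of all windows, and 8 of the other 123 windows of II (6.5%) were called. In replicate 1, 7 of the 30 windows were called against a background of 4.68%, and in replicate 2, 4 of the 30 against 3.58%. All 4 of the latter were called in the 3 lists. With the series-wide peaks found in both replicates, 4 of the 30 were called against 2.69%. Against a negative binomial background that takes the spread of windows on each chromosome into account, 0 of the 30 windows passed, while 6 were under 0.05 before adjustment; genome-wide 0% were called.

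The densest window of II ran from 1.3 to 1.4 Mb. It held 52 series-wide peaks where 9.63 were expected (exact Poisson test, adjusted p = 4.8e-19), 41 peaks in replicate 1 (adjusted p = 2.9e-18, same test) and 25 in replicate 2 (adjusted p = 1.1e-11). Against the negative binomial background its adjusted p was 0.26. Peaks covered 39.6% of its bases, and 26 of the 52 were found in both replicates. The window beside it, from 1.4 to 1.5 Mb, held 29, 20 and 15 peaks in the 3 lists and was called in each. Together these 200 kb had 17.6% of the members and 28.3% of the covered bases of the first 3 Mb. Without them the series-wide density was 135.4 peaks per Mb, which was still above the 82.4 of the rest of II.

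The remaining dense windows differed in how far replicate 2 took part. From 0.4 to 0.5 Mb there were 31 series-wide peaks, 20 in replicate 1 and 15 in replicate 2, and all 3 counts passed the Poisson test. The window from 2.2 to 2.3 Mb, the fourth that passed in each list, had 26, 23 and 17 peaks, of which 18 series-wide peaks were found in both replicates. From 1.9 to 2 Mb there were also 31 series-wide peaks and 19 in replicate 1, but 6 in replicate 2 (exact Poisson test, adjusted p = 0.82). The window from 2.5 to 2.6 Mb held 32, 19 and 9 peaks, and its count in replicate 2 did not pass (exact Poisson test, adjusted p = 0.13). The windows from 2 to 2.1, 2.4 to 2.5 and 2.9 to 3 Mb held 21, 21 and 20 series-wide peaks and passed in that list. In replicate 1 only that from 2.4 to 2.5 Mb passed, and in replicate 2 none of them did.

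Sparse stretches lay between the dense ones. The window from 1.6 to 1.7 Mb had a single peak in each of the 3 lists. The widest span without a series-wide peak ran 96.3 kb, from 2059213 to 2155463, with 1 peak in replicate 1 and 0 in replicate 2. It was followed by 81.4 kb from 895541 to 976981 and 66.7 kb from 785755 to 852418, where replicate 1 had 2 and 4 peaks and replicate 2 had 0. Across the 30 windows the counts ran from 1 to 52 with a median of 12.5, against 0 to 25 with a median of 7.5 on the rest of II.

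Neighbouring peaks were closer together, which a higher density brings in itself. Whether the gaps and runs given here go beyond that was not tested. The median gap between them was 1209 bp in the first 3 Mb and 3460 bp on the rest of II in the series-wide list. In replicate 1 these medians were 1679 and 8337 bp, and in replicate 2 they were 2609 and 18970 bp. Peaks were joined into runs where the gap was at most 2 kb. Runs of 5 or more peaks took in 205 of the 460 members (44.6%) and 199 of the 1012 other peaks of II (19.7%). In replicate 1 they took in 29.9% against 8.10%, and in replicate 2 22.9% against 2.17%.

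The longest runs differed in the strength of their peaks. One run spanned 29.9 kb, from 1300426 to 1330291, with 20 peaks covering 78.0% of it and a median score of 87.3, and 16 of these recurred in both replicates. Replicate 1 showed the same stretch as a run of 18 peaks, and replicate 2 as 2 adjoining runs of 8 peaks each. The run with the most peaks spanned 24.7 kb from 1961763 to 1986475 and had 24. Its median score was 5.17, and 6 of the 24 recurred in both replicates. By series-wide score, dense runs at this end therefore included both strong, recurrent peaks and many weak ones beside a few strong sites.

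A larger share of members than of the other series-wide peaks of II was found in both replicates. A series-wide peak counted as found in a replicate when it overlapped a replicate peak by at least 1 bp. Of the 460 members, 167 (36.3%, interval 31.9 to 40.9) were found in both replicates, against 275 of 1012 peaks on the rest of II (27.2%, 24.5 to 30.03) and a background of 25.9% over the nuclear genome. A further 154 met only replicate 1 peaks, 15 met only replicate 2 peaks, and 124 met no replicate peak. The share found in neither was 27.0% (23.0 to 31.3) among members and 36.9% (33.9 to 39.9) on the rest of II. At the left end of III 37.9% (34.2 to 41.7) were found in both replicates and 30.1% (26.6 to 33.7) in neither, so these shares were not particular to II. The making of the series-wide list is not stated, so its overlap with the replicate lists is not an independent check and was not tested. With an overlap of 50% of each peak required, the shares found in both were 28.5% (24.4 to 32.8) and 24.2% (21.6 to 27.0), with intervals that overlapped.

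The higher share found in both went with higher scores. The deposited score is the peak caller's own value, whose quantity the headers do not name. Apart from a count over paired peaks given below, it was compared only within a list or by rank. Members had a median series-wide score of 11.3 (quartiles 5.98 and 35.9) against 7.74 on the rest of II (4.70 and 17.4). At the left end of III the median was 13.05 (6.33 and 39.2). All nuclear peaks were split into 4 classes of like size by score. Of the members 37.8% fell in the highest class, against 25% of the rest of II. Within that class 86.2% of members were found in both replicates (80.2 to 91.0) and 88.1% of the rest of II (83.5 to 91.9). In the next class the shares were 10.5% (5.70 to 17.3) and 18.7% (14.03 to 24.1), and in the lower 2 classes they were 2.56% and 2.38% among members and 1.19% and 1.15% on the rest of II. In each of the 4 classes the intervals of members and of the rest of II overlapped, and the difference was not tested.

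**Figure D3:**
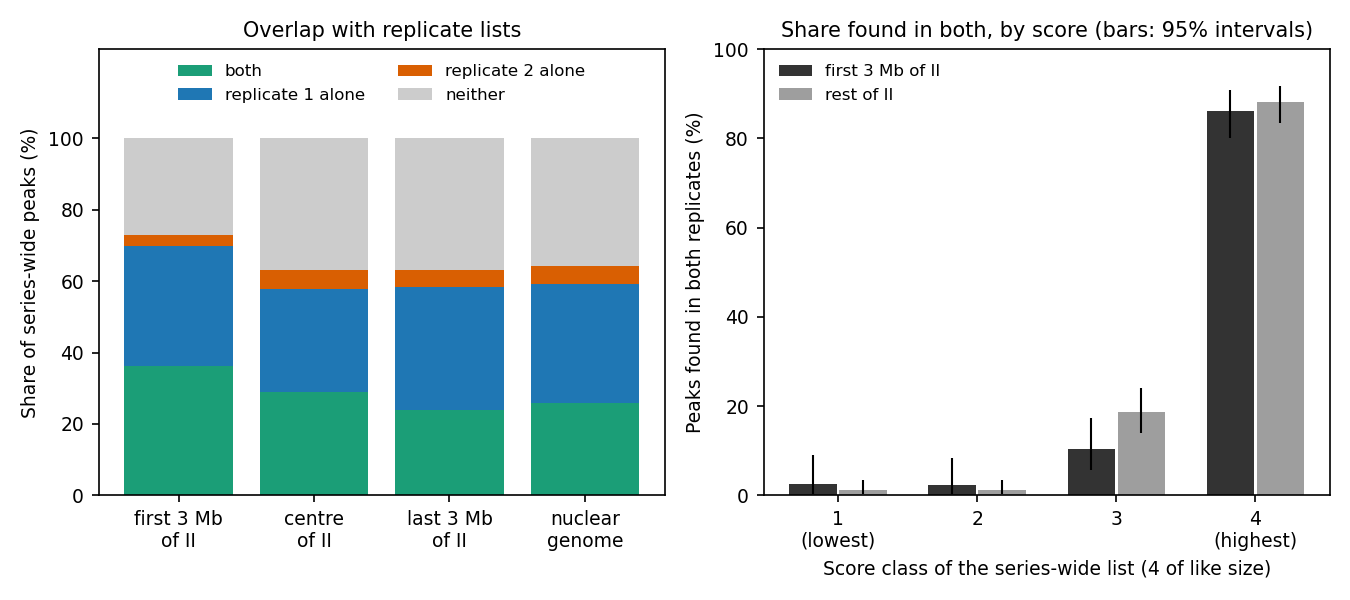
Left, share of series-wide peaks (%) that overlapped a peak of both replicates, of 1 replicate alone or of neither, in 3 parts of II and in the nuclear genome. Right, share found in both replicates (%) by score class of the whole list, for the first 3 Mb and the rest of II with 95% intervals; in the highest class, 4, the shares are 86.2% and 88.1%.

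Compared directly, the replicate lists shared most of the shorter one. At the left end 165 of the 179 replicate 2 peaks overlapped a replicate 1 peak (92.2%, 87.2 to 95.7), against 276 of 322 on the rest of II (85.7%, 81.4 to 89.3). In the other direction 160 of 314 replicate 1 peaks overlapped a replicate 2 peak (51.0%, 45.3 to 56.6), against 47.2% on the rest of II (43.1 to 51.4). That share was 51.5% in the middle of II (46.3 to 56.6) and 39.5% over its last 3 Mb (32.8 to 46.6), so the left end was not above the middle in this direction. At the left end of III 85.0% of replicate 2 peaks (80.4 to 88.9) and 59.2% of replicate 1 peaks (54.3 to 63.9) recurred. Neither direction was tested. Replicate 1 peaks that recurred had a median score of 564 and those that did not 100.5. For replicate 2 these medians were 332 and 132.

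The positions of recurrent peaks agreed closely. Pairs were formed where a replicate 1 peak and a replicate 2 peak overlapped each other and no further peak. In 124 such pairs at the left end the midpoints lay a median of 29 bp apart, and 105 pairs (84.7%) were within 100 bp. On the rest of II the median was 34 bp in 259 pairs, and at the left end of III it was 23 bp in 210 pairs. Scores of the paired peaks had a Spearman rho of 0.85 over the 124 pairs and 0.78 over the 108 pairs below the tied value of 3100. On the rest of II rho was 0.69 over all 259 pairs and 0.62 over the 242 below that value. At the left end of III rho was 0.82 over 210 pairs and 0.76 over the 188 below that value. All pairs came from the same 2 libraries and neighbouring pairs are not independent, so rho is given as a description. Replicate 1 had the higher deposited score in 87 of the 124 pairs. It did so in 178 of 259 pairs on the rest of II and 1487 of 2157 over the nuclear genome. The scales of the 2 lists may differ, so these counts are not read as a difference in binding.

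**Figure D4:**
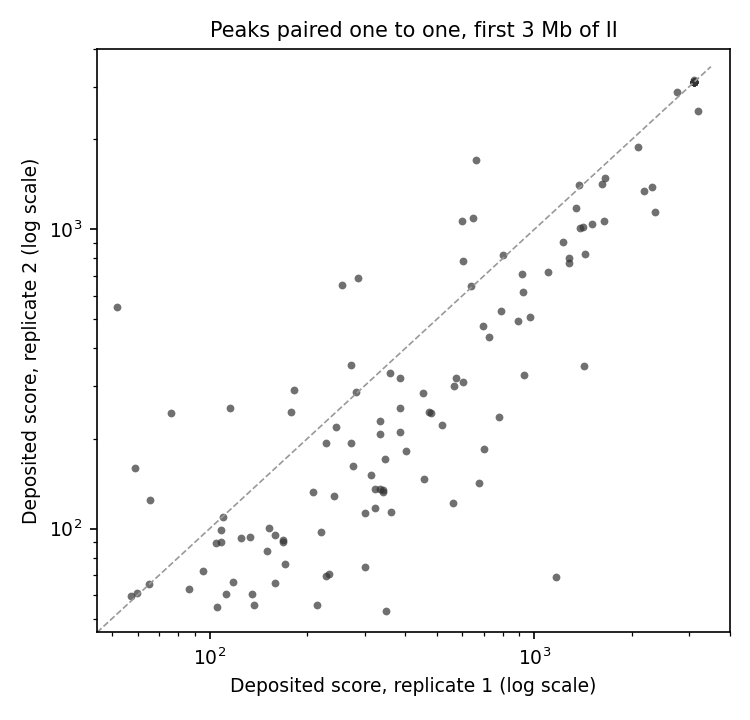
Deposited peak scores of replicate 1 (x axis, log scale) and replicate 2 (y axis, log scale) for the 124 uniquely paired peaks of the first 3 Mb of II. Most points lie below the dashed line of equal score, 87 pairs scoring higher in replicate 1, though the scales of the 2 lists may differ. The tied scores of 3100 gather in the upper right corner.

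Strong peaks made up a larger share of the peaks at the left end than on the rest of II. Of the 14 series-wide peaks of II tied at the highest score of the list, 174.44, 9 were members, which is 1.96% of members (0.898 to 3.68) against 0.494% of the rest of II (0.161 to 1.15) and a background of 0.827%. Scores of 3100 or more were held by 30 of the 314 replicate 1 peaks there (9.55%, 6.54 to 13.4) and 17 of 580 on the rest of II (2.93%, 1.72 to 4.65). In replicate 2 they were held by 24 of 179 (13.4%, 8.78 to 19.3) and 19 of 322 (5.90%, 3.59 to 9.06). The background over the nuclear genome was 4.25% in replicate 1 (3.74 to 4.81) and 7.90% in replicate 2 (6.94 to 8.94). At the left end of III the shares were 0.749% series-wide, 6.68% in replicate 1 and 8.01% in replicate 2. The intervals of members and of the rest of II overlapped series-wide and in replicate 2, and those of members and background did too. The difference was not tested. Median widths did not differ in a steady direction: members had a median of 293 bp and the rest of II 303 bp. Members wider than 1000 bp numbered 57 (12.4%), made up 44.7% of the peak bases of the interval and had a median score of 105, whereas the 90 such peaks on the rest of II had a median score of 23.0.

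The 9 tied members spread across the interval, from base 451480 to base 2600588, and each was found in both replicates. The outermost, from 451480 to 452960, was 1481 bp wide, with replicate peaks of 1661 and 1605 bp. The next lay from 632364 to 634070 and from 855851 to 858415, the latter 2565 bp wide. Both were single peaks scoring 3100 in each replicate.

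A pair of tied members sat in the dense stretch near 1.4 Mb. The narrower ran from 1411204 to 1412676. The other, from 1429887 to 1437128, was the widest member at 7242 bp. Replicate 2 called it as 1 peak of 6975 bp and replicate 1 as 2 adjoining peaks of 2756 and 4096 bp. Close beside it lay a peak from 1437616 to 1440533 with a score of 161.2.

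Of the remaining 4, the tied member from 2385999 to 2387163 was the narrowest at 1165 bp and the only tied member whose highest score in a replicate was below 3100, at 2827 in replicate 2. The 3 others started at 1984280, 2001571 and 2599119. Each met a single replicate 1 peak of 2503 to 3168 bp and 2 replicate 2 peaks.

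Next in score came 10 members of 161.2 to 173.7, all found in both replicates. Among them were 3 in the 29.9 kb run, starting at 1302933, 1316827 and 1323216. A pair starting at 1033648 and 1037714 stood in a window, from 1 to 1.1 Mb, whose median score was 4.46. The first peak of the chromosome, from base 1 to 435, scored 41.1 and was found in both replicates, with 254.8 in replicate 1 and 653.0 in replicate 2.

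A few stronger members were missed by a replicate. The highest-scoring member without a replicate 2 peak, from 2922853 to 2923105, had a score of 36.5 and ranked 113 among members, so each of those above it met a peak there. The highest without a replicate 1 peak, from 143440 to 143832, scored 27.5 and met a replicate 2 peak of 291.3. The highest found in neither, from 1523954 to 1524148, scored 17.3. Conversely, a series-wide peak was met by 302 of 314 peaks that replicate 1 had in the interval (96.2%), and by 178 of 179 in replicate 2 (99.4%). These shares were near those over the nuclear genome, 95.3% and 98.3%.

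A layout of peaks recurred at 5 strong sites near 2 Mb and 2.6 Mb, noticed after the values were seen and given as a description. Beside each of these sites, at a gap of 101 to 135 bp, stood a narrower peak of 736 to 764 bp with a score of 56.1 to 84.7. The strong peaks started at 1968129, 1975883, 1984280, 2001571 and 2599119, were 1322 to 2196 bp wide and scored 168.9 to 174.4. The narrow peak lay on the lower-coordinate side of 4 of them and on both sides of that at 2001571, which gives 6 narrow peaks in all. The first 3 narrow peaks started 7769 and 8411 bp apart.

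Peaks that were weak in the series-wide list extended the layout outward. Within 6 kb beyond the outer edge of 5 of the 6 narrow peaks there were 5 to 7 series-wide peaks scoring at most 12.3, and 3 to 5 peaks in replicate 1. The highest replicate 1 score in each of these stretches was 164.6 to 645.8 and the lowest was 53.1 to 120.5. Replicate 1 peaks of the first 3 Mb had a median of 176.5, with which the highest of several peaks is not directly comparable. Replicate 2 had 0 peaks in this outer stretch at 4 of these 5, and its single peak at the other belonged to the strong site before it. The remaining narrow peak, on the lower side of the site at 2001571, had 0 outer peaks in all 3 lists. In replicate 1 a single peak held the midpoints of both the narrow and the strong peak at 5 of the 6 places, and in replicate 2 this was so at 0 of the 6.

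A narrow neighbour of this kind was not met beside strong peaks elsewhere, where the outer peaks were not searched for. Among the 19 members scoring 160 or more, 5 had a neighbour within 200 bp that was 700 to 800 bp wide and scored 50 to 100, and 0 of the 135 such peaks elsewhere in the nuclear genome did. These limits were set on the members, which favours them. Looser limits were a gap of 300 bp, a width of 500 to 1000 bp and a score of 30 to 130. They gave 8 such neighbours at the left end of II and 0 elsewhere. The looser limits bracket the same members and kept the strong score at 160, so this count is not an independent check. They also took in the peaks starting at 1302132 and 1320338, which lie in the 29.9 kb run. Sequence was not examined here, so whether these places hold copies of 1 sequence, between which short reads could be assigned to more than 1 place, was not tested.

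**Figure D5:**
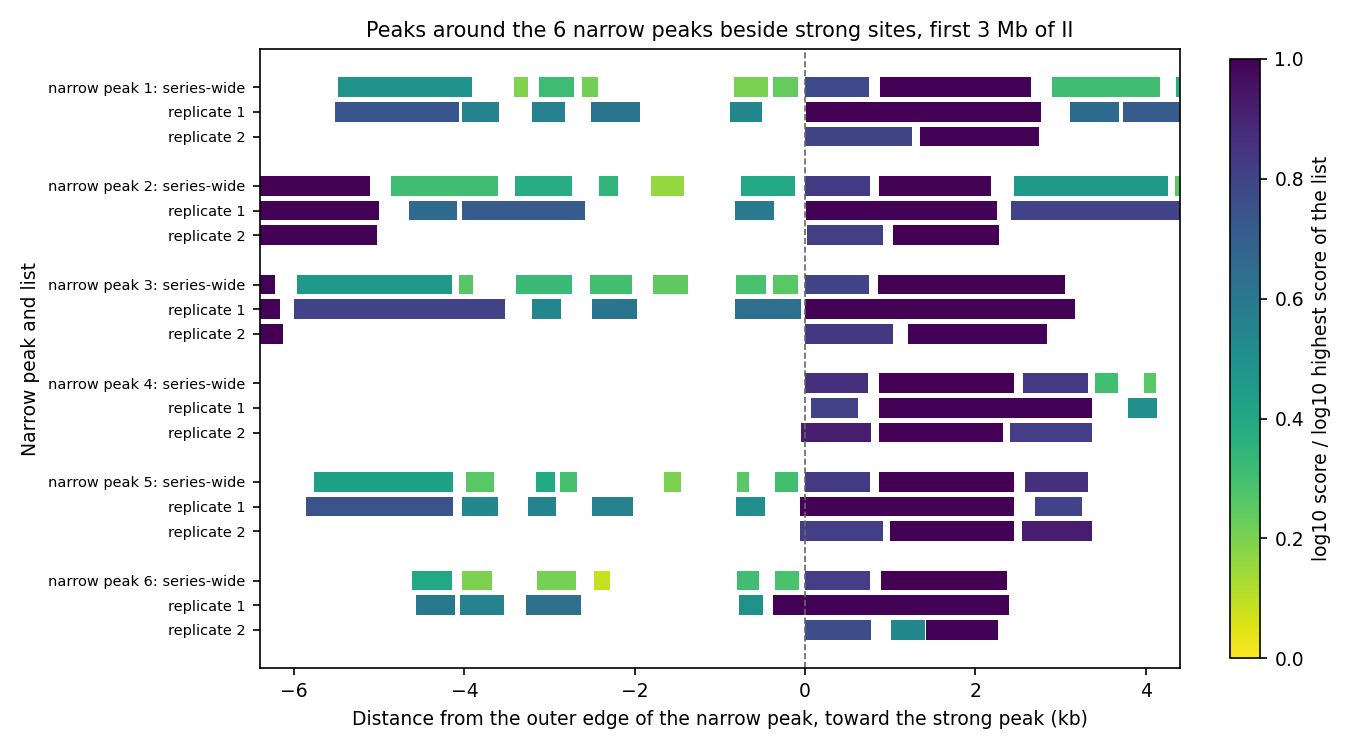
Peaks of the 3 lists around the 6 narrow peaks, aligned at the outer edge of the narrow peak (x axis, distance in kb, with the strong peak to the right) and numbered by start; colour gives the log10 score relative to the highest of its list. Narrow peaks 4 and 5 flank the same strong site. Except at narrow peak 4, further peaks lie to the left that are weak in the series-wide list. These recur at like distances in that list and in replicate 1 but not in replicate 2. At narrow peaks 2 and 3 the leftmost peaks belong to the strong site before and are present in all 3 lists.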

How the data were processed

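ZIM-1 was profiled by ChIP-seq in 2 ChIP libraries with 2 input libraries. The deposited data were 3 peak lists, on WS220 per the file headers; MACS is named as caller in the replicate lists and MACS v2 in the series-wide list. The submitters' processing notes name BWA and ce10. Control, settings and pooling are not given in the sources used here. Each peak's deposited score is the value the authors' caller gave it, and depth is unknown. Positions and other columns of the deposited lists were used as given.

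Peaks were assigned by midpoint. Each chromosome was taken to end where its final peak ended over the 3 lists, and the mitochondrial genome was left out. Densities had exact Poisson intervals, shares exact Clopper-Pearson intervals and ratios exact conditional binomial intervals. Windows were tested by an exact Poisson test with Benjamini-Hochberg adjustment at 0.05, tried on simulated data. The simulated peaks were drawn independently, so that trial does not cover the clustering of the real peaks. Python 3.11.15, numpy 2.4.6, pandas 2.3.3 and scipy 1.17.1 were used.

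The members, comparisons and naming rule were chosen with earlier results of these data known. Named were tied peaks, the next 10 in score, the 5 fullest and the emptiest windows and the 3 widest gaps. So were the peaks at the limits and the strongest peaks missing from a replicate. The windows from 2 to 2.1, 2.2 to 2.3, 2.4 to 2.5 and 2.9 to 3 Mb and the recurring layout were added after their values were seen. Alternatives were other interval and window sizes, single replicate lists, a stricter overlap, higher-scoring peaks and a negative binomial background. Genes and sequence were not examined, since the gene table used here is of another build.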

Additional observations from a re-analysis of the deposited data

How the results depend on the processing

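No paired analysis was possible because no peak list of an input library was used. The density ratio of the left end to the rest of II, 1.86, stayed above 1 in all 10 alternatives. From a single replicate it was 2.22 to 2.28. It was 2.49 for peaks found in both replicates, 2.44 in the higher-scoring 50%, 2.20 by covered bases, 2.15 against the centre of II and 1.32 against its last 3 Mb. Over 1, 2 and 4 Mb it was 1.27, 1.67 and 1.61. The 9 dense windows became 4 to 7 from a single replicate list, 4 with peaks found in both and 0 with a negative binomial background, in which the dense windows add to the spread. The count was 7, 12 and 8 in the higher-scoring 50%, with 50 kb and with 200 kb windows, and 7 with edges moved by 50 kb, which was chosen after seeing the data. The share found in both was 28.5% when 50% of both peaks had to overlap; by score class, a split chosen after seeing the data, it was 2.56%, 2.38%, 10.5% and 86.2%. With that overlap 78.8% of replicate 2 peaks and 44.9% of replicate 1 peaks recurred, and 57.8% of the latter did in the higher-scoring 50%. The ratio of median widths, 0.97, turned to 1.14, 1.07 and 1.01 over 1, 2 and 4 Mb and was 0.99 to 1.19 from single replicates; the cause was not tested. The ratio of median scores was 1.12 to 1.68 from single replicates. The unknown depth limits what a missing peak shows.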
